A study of Rattus norvegicus with 15 samples.

Results

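Transcripts that mark B and T lymphocytes were followed in RNA of the rat multifidus, a deep paraspinal muscle, in 15 libraries of 5 groups. The members were the 9 genes of the deposited table, out of 37991, whose symbol is Cd79a, Cd79b, Ms4a1 or Tnfrsf13b (B cell markers) or Cd3d, Cd3e, Cd8a, Lck or Cd2 (T cell markers). All animals were wild type male Sprague Dawley rats aged 12 weeks. The control group (2 libraries) had no injury. The other groups had spinal surgery, in which the study removed part of the laminae on 1 side and ligated the left L5 spinal nerve, and the surgery group (2 libraries) received nothing afterwards. The pMT group (4 libraries) was injected with mitochondria isolated from human plasma (pMT), 25 µg in 100 µL at each of the injected sites and 50 µg in all. The VitD group (3 libraries) received cholecalciferol, a form of vitamin D, at 150 µg per site and 300 µg in all, and the pMT/VitD group (4 libraries) received both at these doses. The pMT injection was made on day 14 and tissue was taken on day 28 after surgery. The days for the groups with VitD are not given in the sources used here. No group received the buffer of pMT alone, so in pMT against surgery the mitochondria and the injection itself cannot be told apart. The question for these genes was how much lymphocyte RNA the muscle held after injury, and whether it differed with each injection.

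B cells sense antigen through a surface receptor whose signal passes along a pair of partner chains, CD79A and CD79B. T cells use the CD3 chains in the same role, and the kinase LCK, held near the receptor by CD4 or CD8, starts the signal. Few lymphocytes live in resting skeletal muscle, while injured muscle is known to take up T cells together with macrophages. In whole-tissue RNA, fewer cells of a type and less RNA per cell cannot be told apart.

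Total counts per library ranged from 52342134 to 73557878, and the scaling factors by edgeR's trimmed mean of M values (TMM) from 0.849 to 1.20. Levels in CPM (counts scaled to a common library total) below are corrected by these factors, and 3 counts, taken here as the floor of detection, stood for 0.0351 to 0.0648 CPM. The tissue was skeletal muscle, since the 8 skeletal muscle genes checked (Acta1, Ckm and Myh4 the most abundant) summed to 100552 to 177567 CPM. These genes do not tell multifidus from other skeletal muscles. Nothing in the labels ties libraries to separate rats beyond listing them as separate samples, so p-values measure the spread between these samples. A pair of libraries, pMT replicate 4 and pMT/VitD replicate 4, stood apart: over 11399 genes, their deviations from their own group means correlated at -0.81 with each other, while those of pMT replicate 4 correlated at 0.76 with pMT/VitD replicate 1 and those of pMT/VitD replicate 4 at 0.67 with pMT replicate 2. Results that change without both are given with and without them.

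The markers were scarce. Median counts over the 15 libraries were 5 for Cd3d, 9 for Ms4a1, 10 for Cd3e, 19 for Cd79a, 20 for Cd79b, 32 for Cd8a, 34 for Lck and 35 for Cd2, against 104 for Tnfrsf13b. Cd3d was listed at 0 in 5 libraries, Cd79b and Cd3e in 3 each and Ms4a1 in 2, while the other 5 genes had reads in every library. On the length-corrected TPM scale of the deposited table, mean levels over all libraries ran from 0.143 for Ms4a1 and 0.161 for Cd3e to 0.714 for Tnfrsf13b and 0.793 for Cd2. Per transcript length Tnfrsf13b thus stood close to Cd2, and by medians the order was the other way (0.669 and 0.628 TPM). All 9 members passed edgeR's filter on low counts, which kept 17201 genes.

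Some defining genes of mature B cells were close to absent beside them. Pax5, the factor that fixes B cell identity, had at most 6 counts, and Cr2 at most 4. Tnfrsf17, the plasma cell receptor related to Tnfrsf13b, had at most 4 counts. Among T cell genes, Cd40lg, Themis and Trat1 had at most 4, 4 and 12 counts. The Cd79a, Cd79b and Ms4a1 counts thus stood beside almost no reads of Pax5 or Cr2. These genes were named because they were near 0, and most other B and T cell genes listed were not. Of 18 other B cell genes, 4 had at most 10 counts in every library, as had 2 of 21 other T cell genes. Summed over each list, the levels were 27.5 to 47.4 CPM for B cell and 29.7 to 82.2 CPM for T cell genes. In the surgery libraries the T cell list summed to 73.6 and 72.7 CPM. Most of that was Cd4, which rat macrophages also carry, so the sum is not a measure of T cell RNA alone.

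Upstream sequences of Lck and Tnfrsf13b are shown because these were the members called in comparisons of single pairs of groups, Lck lower and Tnfrsf13b higher in pMT/VitD against VitD. Each is the 250 bases before an annotated transcript start in RefSeq's GRCr8 assembly, 5′ to 3′ on the gene's strand, and capitals mark the letters TGTGGT, the core that Runx factors of T cells bind. The windows are Lck at chr5:147201268-147201517 (minus strand), the other Lck start at chr5:147183651-147183900 (minus strand) and Tnfrsf13b at chr10:46301086-46301335 (plus strand).
Lck: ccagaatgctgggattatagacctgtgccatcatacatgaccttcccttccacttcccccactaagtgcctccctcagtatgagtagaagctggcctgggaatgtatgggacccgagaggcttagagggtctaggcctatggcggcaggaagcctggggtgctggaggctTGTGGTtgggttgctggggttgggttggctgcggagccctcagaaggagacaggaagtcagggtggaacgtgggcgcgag
Lck, other start: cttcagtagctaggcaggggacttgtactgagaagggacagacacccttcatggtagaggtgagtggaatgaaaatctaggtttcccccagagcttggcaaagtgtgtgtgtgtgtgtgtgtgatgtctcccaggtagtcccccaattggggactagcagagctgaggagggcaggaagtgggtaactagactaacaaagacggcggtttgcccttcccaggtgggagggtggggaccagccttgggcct
Tnfrsf13b: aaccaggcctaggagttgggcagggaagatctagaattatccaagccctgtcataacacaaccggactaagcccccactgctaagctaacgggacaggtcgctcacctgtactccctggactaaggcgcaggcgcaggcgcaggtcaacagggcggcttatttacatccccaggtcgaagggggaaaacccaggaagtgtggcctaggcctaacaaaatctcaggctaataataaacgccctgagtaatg
The files themselves use the rn6 assembly, so these positions do not apply to them. TGTGGT began 80 bases before the first Lck start and was missing from the other Lck window and from Tnfrsf13b. It occurred, on either strand, in 2 of the 8 windows held for 7 of the members (Lck and Cd2) and in 14.5% of all 33469 windows. GAGGAA, the core bound by Spi factors, occurred in 3 of the 8 (Cd2, Cd3e and Cd79a) and in 23.3% of all windows. The octamer ATGCAAAT (1.56% of all windows) and the EBF palindrome (0.738%), motifs of B cell genes, occurred in none of the 8. These matches describe letters only.

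Lck encodes the kinase that phosphorylates CD3 chains. Its counts were 34 and 27 without injury, 105 and 82 after surgery alone, and 167, 78 and 61 with VitD. They were 48, 23, 44 and 24 with pMT and 24, 27, 28 and 31 with pMT/VitD. Both surgery libraries lay above every control, pMT and pMT/VitD library, and the lowest VitD library overlapped only with the highest pMT library once depth was scaled. In CPM, the means were 0.493 ± 0.0611 (SD, n = 2) in the control, 1.24 ± 0.169 (SD, n = 2) in the surgery, 0.538 ± 0.221 (SD, n = 4) in the pMT, 0.556 ± 0.0543 (SD, n = 4) in the pMT/VitD and 1.29 ± 0.596 (SD, n = 3) in the VitD group. The order was VitD, surgery, pMT/VitD, pMT and control. VitD and surgery did not differ beyond their spread, and neither did the other 3 groups among themselves.

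Lck was the 1 member of the 9 called when all 5 groups were compared at once with edgeR's quasi-likelihood (QL) test and Benjamini-Hochberg adjustment over all genes (QL-adjusted p = 0.0253), where 11.8% of all genes were called and 2 members had an unadjusted p under 0.05. DESeq2 called 2 members (21.6% of all genes) and limma voom 6 (66.6% of all genes). This Lck call was lost in 6 of the 15 fits that each left out 1 library, namely without either control library, either surgery library, or VitD replicate 1 or 2.

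**Figure D1:**
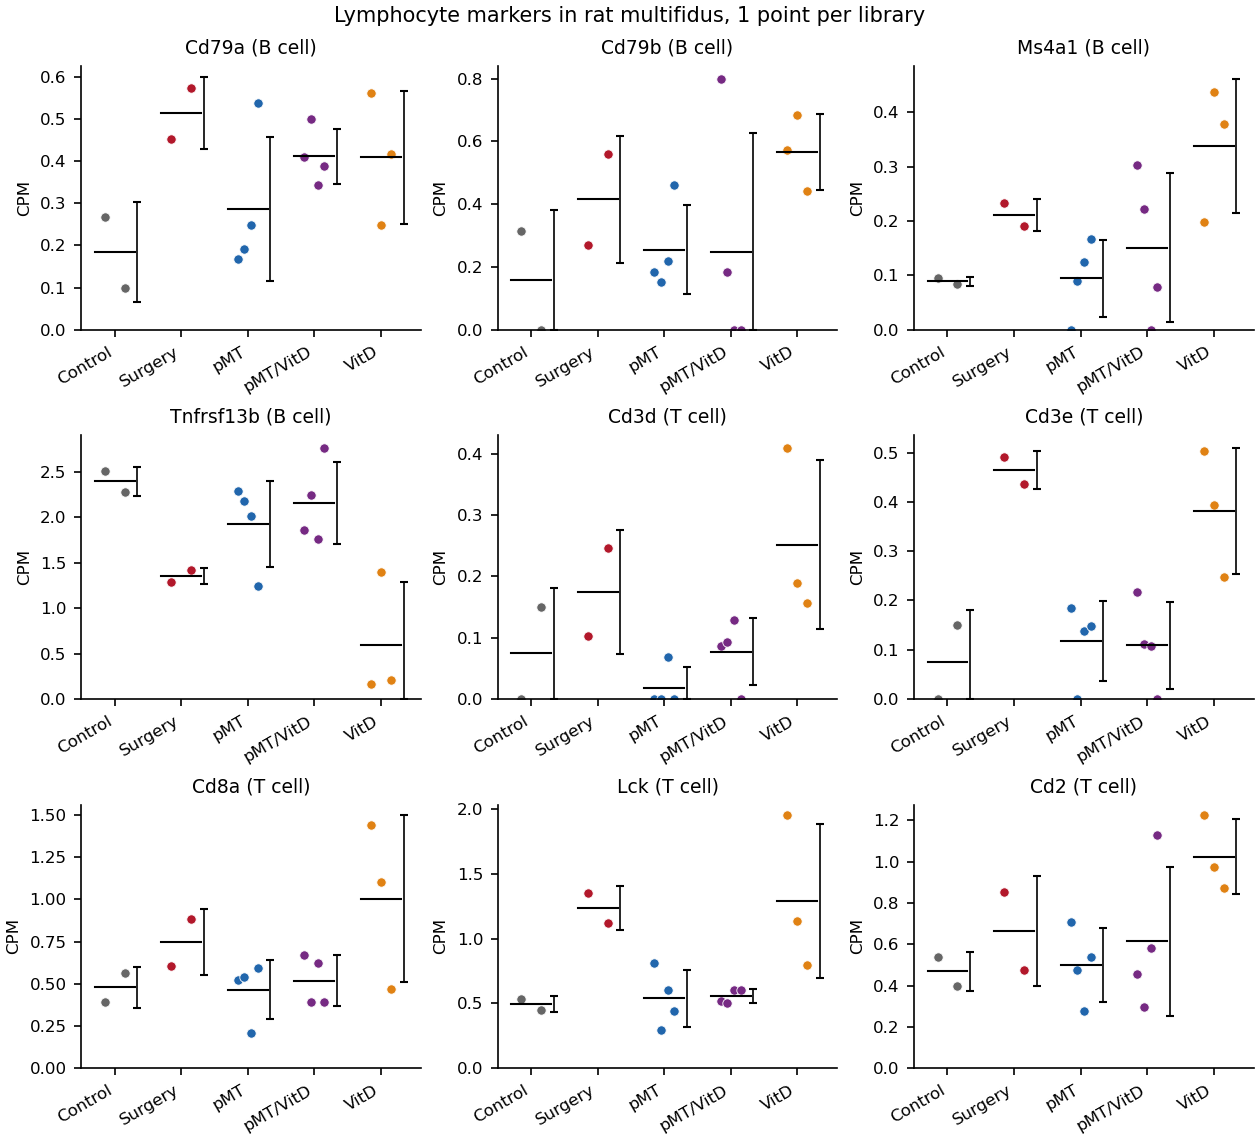
Level of each of the 9 lymphocyte markers in CPM (vertical axis, linear) by group, with 1 point per library, a line at the group mean and a bar of 1 SD beside it (cut at 0). The highest group mean is that of surgery or VitD for 8 markers, while Tnfrsf13b runs the other way, with control, pMT and pMT/VitD means of 2.40, 1.93 and 2.16 CPM above the VitD mean of 0.590 CPM.

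The CD3 chains Cd3d and Cd3e, which carry the signal of the T cell receptor, were at the edge of detection. Cd3e had 0 and 9 counts in the control, 38 and 32 in the surgery, and 43, 27 and 19 in the VitD libraries. It had 11, 0, 10 and 8 counts in the pMT and 10, 6, 5 and 0 in the pMT/VitD libraries. Each surgery and VitD library lay above each of the other 10 in Cd3e. The share of all genes separated in this way was not computed. Cd3d had 0 and 9 counts in the control, 8 and 18 in the surgery and 35, 13 and 12 in the VitD libraries. Of the 4 pMT libraries, 1 had 5 Cd3d counts and the others had 0, and the pMT/VitD libraries had 4, 5, 6 and 0. In Cd3d, unlike Cd3e, surgery replicate 1 (0.103 CPM) lay below a control library (0.150 CPM) and a pMT/VitD library (0.129 CPM), so these groups overlapped. The summed counts of both chains were 46 and 50 in the surgery libraries and 31 to 78 in the VitD libraries, against 0 to 18 in the other 3 groups.

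Cd8a, a chain of the coreceptor of cytotoxic T cells, had 25 and 34 counts in the control and 47 and 65 in the surgery libraries. It had 123, 76 and 36 counts in the VitD, 31, 42, 15 and 32 in the pMT and 31, 21, 29 and 20 in the pMT/VitD libraries. VitD replicate 3 overlapped with the control libraries once depth was scaled, and VitD replicate 1 was the highest. Cd2, an adhesion receptor of T and NK cells, had 34 and 24 counts in the control, 66 and 35 in the surgery and 105, 67 and 67 in the VitD libraries. It had 42, 37, 20 and 29 counts in the pMT and 21, 16, 27 and 58 in the pMT/VitD libraries. The Cd2 level of pMT/VitD replicate 4 (1.13 CPM) lay within the VitD range and above every control, surgery and pMT library.

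The B cell receptor chains varied more. Cd79a had 17 and 6 counts in the control, 35 and 42 in the surgery, 10, 15, 18 and 29 in the pMT, 19, 27, 16 and 20 in the pMT/VitD and 48, 17 and 32 in the VitD libraries. In CPM, the pMT/VitD mean of 0.411 ± 0.0658 (SD, n = 4) was close to the VitD mean of 0.408 ± 0.157 (SD, n = 3). Cd79b had 20 and 0 counts in the control, 21 and 41 in the surgery, 11, 12, 16 and 25 in the pMT and 49, 47 and 34 in the VitD libraries. In the pMT/VitD group it had 37, 10, 0 and 0 counts, so that 1 library held the highest Cd79b level of all 15 (0.799 CPM) and a pair of libraries held none. Ms4a1, which encodes the B cell surface protein CD20, had 6 and 5 counts in the control, 18 and 14 in the surgery, 0, 7, 9 and 9 in the pMT, 14, 12, 0 and 4 in the pMT/VitD and 17, 30 and 29 in the VitD libraries. The B cell chains overlapped between the pMT/VitD group and both the surgery and the VitD group.

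Tnfrsf13b encodes TACI, the receptor on B cells for the survival ligands BAFF and APRIL. Its counts ran opposite to those of the other members. They were 159 and 137 in the controls, 100 and 104 after surgery alone and 136, 170, 146 and 67 with pMT. They were 86, 121, 82 and 142 with pMT/VitD and only 14, 96 and 16 with VitD. VitD replicates 1 and 3 thus stood far below every other library, and VitD replicate 2 lay with the surgery libraries. In CPM, the group means were 2.40 ± 0.159 (SD, n = 2) in the control, 1.36 ± 0.0892 (SD, n = 2) in the surgery, 1.93 ± 0.474 (SD, n = 4) in the pMT, 2.16 ± 0.454 (SD, n = 4) in the pMT/VitD and 0.590 ± 0.699 (SD, n = 3) in the VitD group.

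The low Tnfrsf13b counts of VitD replicates 1 and 3 came with another ratio of counts to TPM. After scaling for the library, 1 TPM of Tnfrsf13b corresponded to 40.0 and 40.6 counts in these 2 libraries and to 150 to 165 counts in the other 13. The ratio of highest to lowest was 4.12, against a median of 1.01 over 13059 genes compared in the same way, and 99.97% of those genes spanned less. The table lists 2 transcripts for this gene. In TPM, VitD replicates 1 to 3 held 0.305, 0.669 and 0.370, so that the group (0.448 ± 0.194 TPM, SD, n = 3) overlapped with the pMT/VitD group (0.757 ± 0.312 TPM, SD, n = 4) and still lay below both control libraries (0.917 and 0.818 TPM). Of the other members, Cd8a spanned 1.51 in this ratio and the remaining 7 spanned at most 1.14, in libraries with at least 10 counts. The part of this ratio in the Tnfrsf13b results was not tested.

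**Figure D2:**
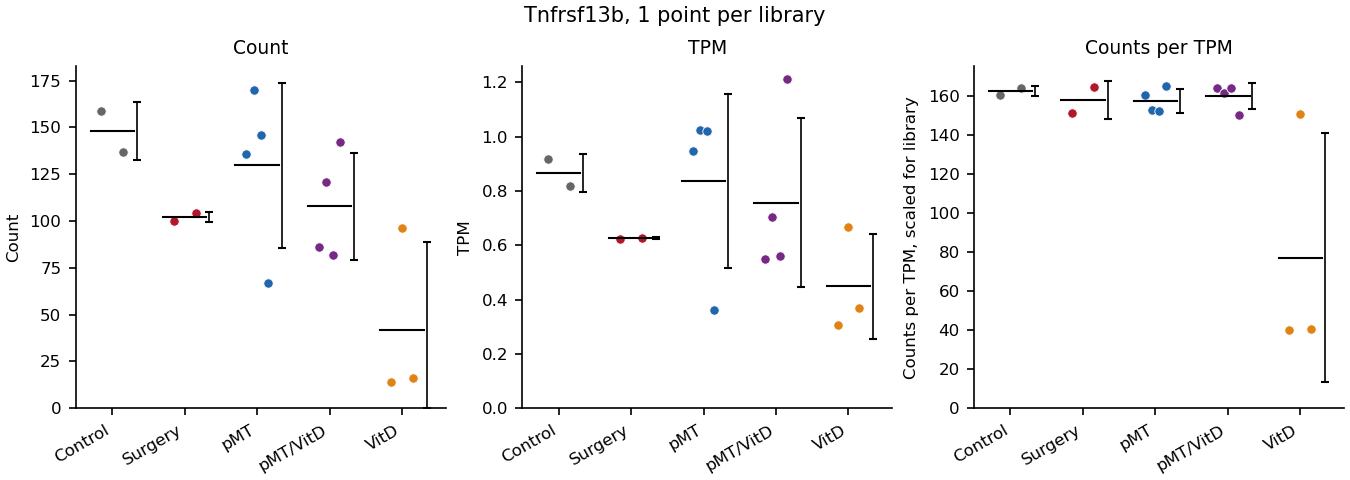
Tnfrsf13b by group as counts (left), TPM (middle) and counts per TPM scaled for the library (right), all on linear axes, with 1 point per library, a line at the group mean and a bar of 1 SD (cut at 0). VitD replicates 1 and 3 hold 40.0 and 40.6 counts per TPM, apart from the other 13 libraries at 150 to 165.

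Comparing surgery with no injury, 8 members were fitted higher and Tnfrsf13b lower, but none of the 9 passed the quasi-likelihood test (adjusted p 0.139 to 0.697), where 1.55% of all genes were called. Lck and Cd79a had unadjusted p-values under 0.05. The median log2 fold change of the 9 was 1.23, against -0.01 over all 17201 genes tested. Lck was higher by 1.32 on the log2 scale (standard error, SE, of 0.44, QL-adjusted p = 0.139), and Cd3e by 2.62 (SE 1.25, QL-adjusted p = 0.305). For 5 members (Cd79a, Ms4a1, Cd3e, Cd8a and Lck) both surgery libraries lay above both controls, as they did for 31.7% of all genes, and for Tnfrsf13b both lay below, as for 34.4% of all genes. DESeq2 called 0 members (5.94% of all genes), edgeR's exactTest on these 2 groups 4 (36.3%) and limma voom 3 (28.5%).

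Comparing pMT with surgery alone, 8 members were fitted lower and Tnfrsf13b higher, and again 0 of 9 passed the quasi-likelihood test (adjusted p 0.120 to 0.843), where 1.94% of all genes were called. Lck was lower by 1.21 on the log2 scale (-1.21, SE 0.36, QL-adjusted p = 0.120) and every pMT library lay below both surgery libraries. The same complete separation held for Ms4a1, Cd3d, Cd3e and Cd8a, so for 5 of 9 members, against 17.2% of all genes, and no member was higher in every pMT library, against 13.2% of all genes. Cd3d had the largest fitted difference (-3.10, SE 1.27, QL-adjusted p = 0.267), but it rests on 0 to 18 counts per library. Lck and Cd3d had unadjusted p-values under 0.05, and DESeq2 called 0 members (4.34% of all genes), exactTest 1 (7.1%) and limma voom 4 (37.5%).

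With VitD alone after surgery, 0 of 9 members differed from surgery in the quasi-likelihood test or by its unadjusted p. DESeq2, exactTest and limma voom also called 0 members. The QL test and DESeq2 called 0.0% of all genes, exactTest 0.0358% and limma voom 2.44%, and 139 genes had an unadjusted p under 0.05. Lck differed by 0.07 on the log2 scale (SE 0.38). Only Cd2 had every VitD library above both surgery libraries, as had 7.69% of all genes, and no member had every one below, against 8.15% of all genes. Without VitD replicate 2, Tnfrsf13b was called lower (-2.86, QL-adjusted p = 0.0228). The pMT/VitD group compared with surgery had 0 of 9 members called, where 7.44% of all genes were called. Lck came closest (-1.15, SE 0.37, QL-adjusted p = 0.0722) and was the 1 member with an unadjusted p under 0.05. Without VitD replicate 1, which had the highest Lck count, it was called (QL-adjusted p = 0.0340). Here Lck and Cd3e lay below both surgery libraries in every pMT/VitD library, 2 members against 20.2% of all genes, and Tnfrsf13b lay above in all, against 16.6% of all genes. DESeq2 called 0 members (2226 of all genes), exactTest 2 (10.8% of all genes) and limma voom 1 (39.4%).

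Comparing VitD with control, 8 members were fitted higher and 1 member was called, where 8.67% of all genes were called. This was Tnfrsf13b, which fell by 2.05 on the log2 scale (SE 0.60, QL-adjusted p = 0.0475). The call held in 3 of the 15 fits without 1 library (pMT replicate 4, pMT/VitD replicate 4 or VitD replicate 2), and the difference was -1.59 without VitD replicate 1 and -1.64 without VitD replicate 3. Lck narrowly missed (1.39, SE 0.42, QL-adjusted p = 0.0522), and was at 0.96 (adjusted p = 0.209) without VitD replicate 1. Over all its alternatives in this comparison, the adjusted p of Lck ran from 0.00849 to 0.271. Every VitD library lay above both controls for 6 members, against 25.0% of all genes, and below both for Tnfrsf13b, against 27.1% of all genes. The exceptions were Cd79a and Cd8a, in which the groups overlapped. Without pMT replicate 4 and pMT/VitD replicate 4, Lck was called beside Tnfrsf13b (QL-adjusted p = 0.0419), where 15.1% of all genes were called.

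Comparing pMT/VitD with VitD alone, 2 of 9 members were called, where 21.9% of all genes were called. Lck fell by 1.22 on the log2 scale (SE 0.33, QL-adjusted p = 0.0190). Tnfrsf13b rose 3.73-fold (QL-adjusted p = 0.0219). DESeq2 also called 2 members (27.0% of all genes) and exactTest 3 (17.9%). Without pMT replicate 4 and pMT/VitD replicate 4, Cd2 was called as well, and 32.0% of all genes. Every pMT/VitD library lay below every VitD library for Lck, Cd3d and Cd3e (3 members, against 15.6% of all genes) and above for Tnfrsf13b (against 13.0%). Cd8a was at -0.96 (adjusted p = 0.101) and Cd79a at 0.00 (adjusted p = 0.996), both from the same test. Both calls rested on VitD replicate 1. Without it, Lck was at -0.79 on the log2 scale (adjusted p = 0.138) and Tnfrsf13b at 1.44 (adjusted p = 0.0829), and 0 members were called. Without VitD replicate 3, Tnfrsf13b was at 1.49 (adjusted p = 0.0638), and without pMT/VitD replicate 2 the adjusted p of Lck was 0.0505. Without VitD replicate 2, Tnfrsf13b was at 3.53 (adjusted p = 0.000133). Over all alternatives in this comparison the adjusted p ran from 0.00470 to 0.138 for Lck and from 0.000133 to 0.145 for Tnfrsf13b.

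**Figure D3:**
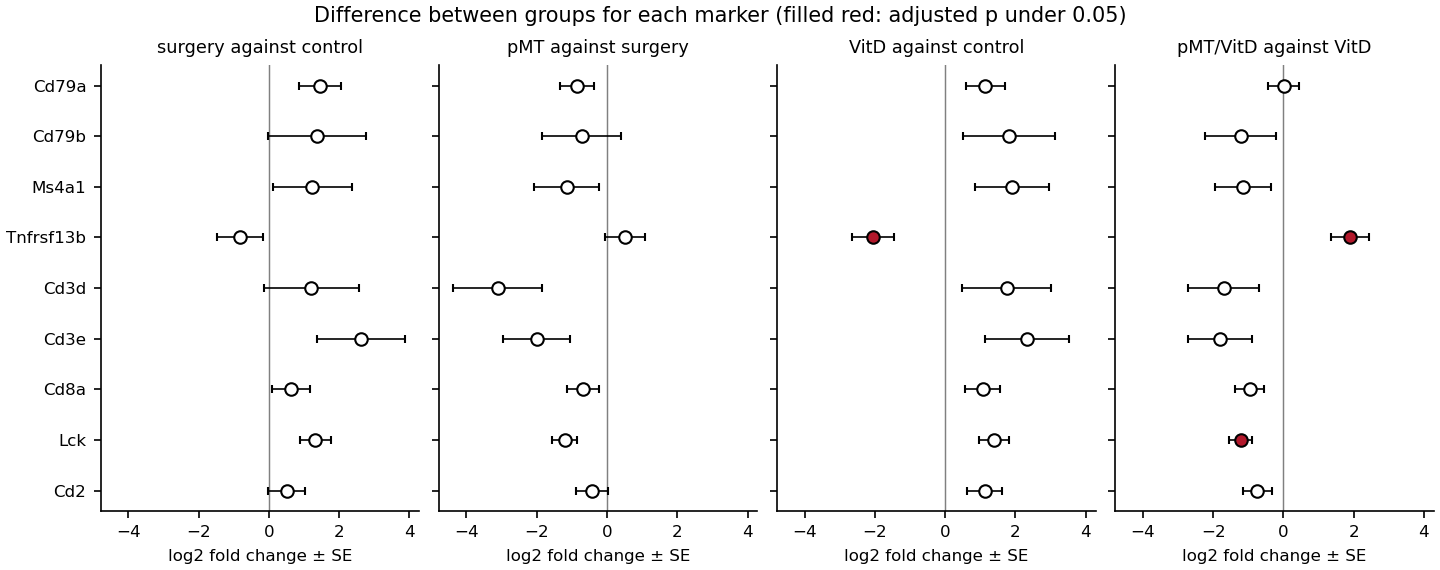
Log2 fold change (horizontal axis) with its standard error for the 9 markers in 4 comparisons, each from edgeR's quasi-likelihood fit to all 15 libraries, with filled red points for an adjusted p under 0.05. Tnfrsf13b stands opposite to the other 8 markers in the first 3 panels, and only Tnfrsf13b and Lck are filled.

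The remaining pairs showed no called member. In pMT against control, 0 of 9 members were called by the quasi-likelihood test, the unadjusted p, DESeq2, exactTest or limma voom. The QL test and DESeq2 called 0.0% of all genes, exactTest 0.0733% and limma voom 1.32%, and 528 genes had an unadjusted p under 0.05. Lck differed by 0.12 (SE 0.40). The libraries of these groups overlapped for all 9 members, while 7.41% of all genes were higher in every pMT library and 7.77% lower. In pMT/VitD against control the count was 0 by the same 5 criteria, where the QL test called 0.0% of all genes. DESeq2 called 0.00582%, exactTest 0.0249% and limma voom 10.6%, and 496 genes had an unadjusted p under 0.05. Cd79a had the largest fitted difference (1.15, SE 0.55, QL-adjusted p = 0.906). It was the 1 member above both controls in every pMT/VitD library, against 4.23% of all genes, and no member lay below, against 4.97%. In pMT/VitD against pMT the count was 0 by all but limma voom, which called 3 (and 38.3% of all genes). DESeq2 called 1.36% of the 6859 genes it tested, exactTest 0.0%, and 1737 genes had an unadjusted p under 0.05. The QL test called 0.0% of all genes. That share rests on the pair of libraries that stood apart, since without them the QL test called 18.3% of all genes (3136) and still 0 of 9 members. These groups overlapped for all 9 members, while 2.46% of all genes were higher and 2.4% lower in every pMT/VitD library. The interaction asks whether the difference between groups with and without pMT changed with VitD. Limma voom called it for 3 members and 31.4% of all genes, and DESeq2 for 0 members and 0.0% of all genes. The QL test called it for 0 of 9 members and 0.0% of all genes, and by its unadjusted p 0 members passed (888 genes did). Without the same pair of libraries, 1.89% of all genes and 0 members were called. For Lck the interaction was -0.01 with a standard error of 0.51.

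A pair of comparisons that pool the groups was added after the data were seen. The 8 libraries with pMT were set against the 5 from operated rats without it, which reuses the libraries and contrasts above. In this comparison 3 of 9 members were called, where 23.3% of all genes were called. Lck fell by 1.21 on the log2 scale (SE 0.25, QL-adjusted p = 0.00332), and this call held in all 24 alternatives, with adjusted p from 1.24e-05 to 0.0234. Cd3d fell by 2.40 (SE 0.81, QL-adjusted p = 0.0452). Tnfrsf13b rose by 1.21 (SE 0.39, QL-adjusted p = 0.0394). The Lck ranges still touched, since pMT replicate 1 (0.809 CPM) lay above VitD replicate 3 (0.794 CPM). Cd3e was the 1 member in which all 8 libraries lay below all 5, against 7.15% of all genes (no member was higher in all 8, against 4.24%), and its adjusted p was 0.0505. Cd3d and Tnfrsf13b were less secure, as the call was lost in 9 of the 15 fits without 1 library for Cd3d and in 11 of 15 for Tnfrsf13b. Without pMT replicate 4 and pMT/VitD replicate 4 the called members were Lck, Tnfrsf13b, Cd3e and Cd2, and not Cd3d, where 28.5% of all genes were called. For VitD given against VitD not given, the QL test called 0 of 9 members and 0.0% of all genes. By unadjusted p under 0.05, 0 members passed (261 genes did), and DESeq2 called 0 members and 0.0% of all genes. Limma voom called 2 members and 24.6% of all genes. These libraries overlapped for all 9 members, and 0.0174% of all genes were higher and 0.00581% lower in every library with VitD.

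Other genes of these cells were read from lists. Of 18 other B cell genes, 14 were tested and 4 had at most 10 counts in every library. Of 22 other T cell genes, 21 were in the table and 16 were tested. Cxcr5, the receptor that guides B cells and follicular T cells, rose with surgery (log2 fold change 1.02, SE 0.24, QL-adjusted p = 0.0472) and fell in pMT against surgery (-0.90, SE 0.20, QL-adjusted p = 0.0311). It was the 1 of 14 other B cell genes called in each of these comparisons, where 1.55% and 1.94% of all genes were called. Compared with surgery, 3 of the 14 were called in pMT/VitD, where 7.44% of all genes were called. Cd37 and Cxcr5 were lower and Vpreb3 was higher. For pMT given, 5 of the 14 were called, 4 lower and Vpreb3 higher, where 23.3% of all genes were called. Cd247, the zeta chain of the T cell receptor complex, was at 0 in both control libraries, which allows up to 3 counts in each (counting error only), and had 26 to 31 counts in the surgery libraries. It was the 1 of 16 other T cell genes called with surgery, where 1.55% of all genes were called. Cd4, which rat macrophages also carry, was the 1 called in pMT against surgery (-0.93, SE 0.22, QL-adjusted p = 0.0414), with 27.2 to 36.7 CPM in the pMT and 61.6 to 61.9 CPM in the surgery libraries.

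In pMT/VitD against VitD, 6 of 14 other B cell genes, 3 of 16 other T cell genes and 2 of 12 NK and cytotoxic genes were called, all lower, against 21.9% of all genes called, so that the shares of T cell and of NK and cytotoxic genes were below that of all genes. Among the B and T cell genes were Cd22 (-1.17, QL-adjusted p = 0.00400), a brake on B cell receptor signalling, and Cd28 (-1.47, QL-adjusted p = 0.0147), the costimulatory receptor of T cells. In VitD against control, 2 of 14 other B cell genes (Cxcr5 and Cd22), 3 of 16 other T cell genes (Cd4, Cd247 and Cd28) and 3 of 12 NK and cytotoxic genes were called, all higher, where 8.67% of all genes were called. In surgery against control, the NK and cytotoxic genes Nkg7 (2.41, SE 0.49, QL-adjusted p = 0.0306) and Eomes (QL-adjusted p = 0.0395) were called among 12, both higher, where 1.55% of all genes were called. Eomes, a factor of cytotoxic lymphocytes, had 0 to 2 counts in the control and 20 to 30 in the surgery libraries. Plasma cell genes gave 0 of 7 calls in surgery against control, pMT against surgery and VitD against control, and 1 of 7 (Prdm1, lower) in pMT/VitD against VitD.

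The ligands of TACI were measured too. Tnfsf13b, which encodes BAFF, fell in pMT/VitD against VitD (-1.13, SE 0.25, QL-adjusted p = 0.00704), with 0.367 to 0.688 CPM against 0.898 to 1.15 CPM. Tnfsf13, which encodes APRIL, was not called in any pair of groups and held 6.17 to 9.57 CPM across all 15 libraries. Tnfrsf13b was called higher there on counts, a call lost without VitD replicate 1 or 3, and in TPM the groups overlapped.

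The summed levels of general leukocyte genes are set beside those of the T cell markers. The 5 pan-leukocyte genes (Laptm5, Cd53, Coro1a, Itgb2 and Ptprc) summed to 67.9 to 68.6 CPM in the surgery and 63.2 to 90.6 CPM in the VitD libraries. They summed to 40.6 to 42.0 CPM in the control, 39.4 to 49.2 CPM in the pMT and 31.3 to 42.8 CPM in the pMT/VitD libraries. The 5 T cell markers summed to 3.16 and 3.41 CPM in the surgery and 2.54 to 5.53 CPM in the VitD libraries, and to 1.30 to 2.22 CPM in the other 10. Surgery and VitD libraries were separate from the other 10 in both sums. This split was not tested, and the share of all genes separated in the same way was not computed. The 3 B cell markers Cd79a, Cd79b and Ms4a1 were less separate, at 0.956 to 1.37 CPM in the surgery and VitD libraries and 0.183 to 1.51 CPM in the other 10. The 6 macrophage genes summed to 179 to 180 and 176 to 202 CPM in those groups and to 67.9 to 129 CPM in the other 10. In surgery against control, 0 of 5 pan-leukocyte, 1 of 6 macrophage, 0 of 4 red cell and 0 of 8 skeletal muscle genes were called by the QL test, where 1.55% of all genes were. In pMT against surgery the counts were 1 of 5 (Laptm5, lower), 1 of 6 (lower), 0 of 4 and 0 of 8, where 1.94% of all genes were called. In VitD against control they were 3 of 5 and 2 of 6 (all higher), 0 of 4 and 1 of 8 (Des, lower), where 8.67% were called. Where pMT/VitD was compared with VitD and 21.9% of all genes were called, 5 of 5 pan-leukocyte and 5 of 6 macrophage genes were called lower, and 4 of 4 red cell and 3 of 8 skeletal muscle genes (Ckm, Des and Myh4) higher. Of 9 lymph node and lymphatic genes, 4 were tested, and Lyve1 and Cxcl13 were called higher in surgery and in VitD against control and lower in pMT against surgery and in pMT/VitD against VitD, while 5 had at most 10 counts in every library. The part of these other cells in the marker results was not tested.

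**Figure D4:**
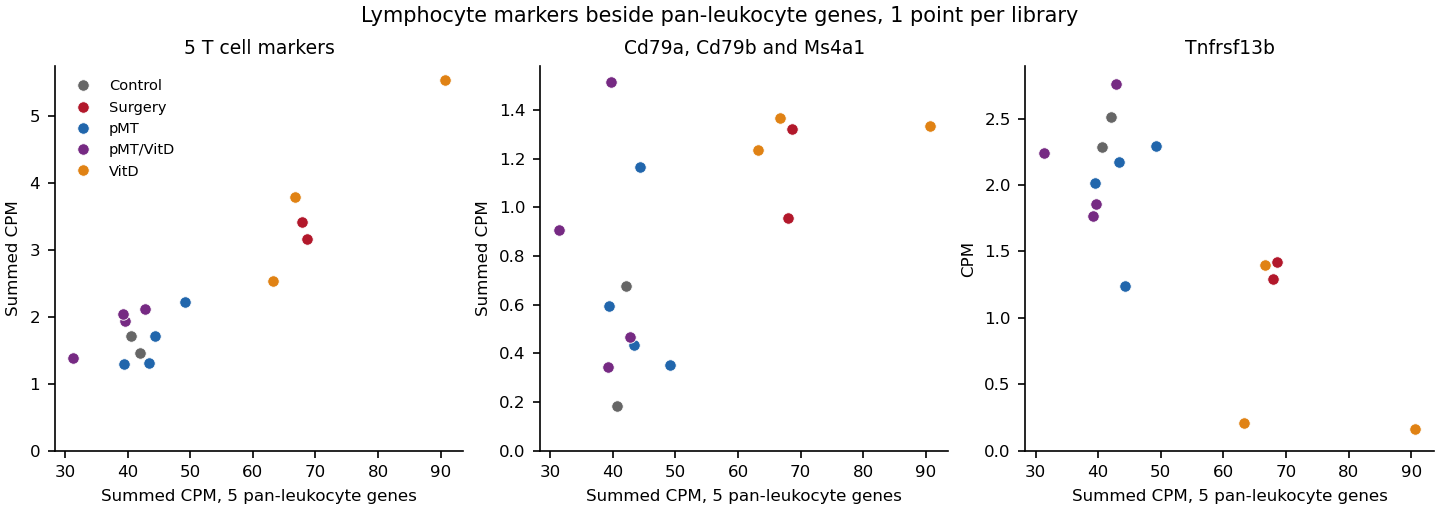
Summed CPM of the 5 T cell markers (left), of Cd79a, Cd79b and Ms4a1 (middle) and the CPM of Tnfrsf13b (right) against the summed CPM of 5 pan-leukocyte genes, 1 point per library, linear axes. Libraries form 1 cluster of control, pMT and pMT/VitD at 31.3 to 49.2 CPM and 1 of surgery and VitD at 63.2 to 90.6 CPM on the horizontal axis.

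The T cell markers were more alike across all libraries than within the larger cluster. Over all 15 libraries, Pearson's r of log2 CPM was above 0 for all 10 pairs of T cell markers (median 0.58) and below 0 for all 8 pairs with Tnfrsf13b (-0.60 to -0.43). Within the 10 control, pMT and pMT/VitD libraries alone, the median for T cell pairs was 0.12 with 3 of 10 pairs below 0, and Tnfrsf13b ranged from -0.53 to 0.23. Among Cd79a, Cd79b and Ms4a1 the 3 pairs stayed at 0.35 to 0.55 in those 10 libraries, as against 0.44 to 0.66 in all 15. Over all 15 libraries, Tnfrsf13b correlated at -0.72 with the mean of the pan-leukocyte genes and at 0.68 with that of the skeletal muscle genes. For the mean of Cd79a, Cd79b and Ms4a1 these values were 0.47 and -0.59. Which cells the Tnfrsf13b reads came from was not tested. All these correlations share library and depth and are given as a description.

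Among 12800 genes of higher expression, those most like the mean T cell marker level over the 15 libraries were Calhm2, MGC105649, Pinlyp, Igsf10 and Mical1 (Pearson's r 0.92 to 0.93). For the 4 B cell markers they were Rps6kl1, Lrrc61, Pcyox1l, Cracr2b and Cdkl3 (0.80 to 0.82), and without Tnfrsf13b they were Pcyox1l, Sln, Tmem204, Id3 and Rps6kl1 (0.88 to 0.92). Without pMT replicate 4 and pMT/VitD replicate 4 these genes changed. Those most like the T cell markers were then Snx2, Wtip, Pinlyp, Cdkn1c and Clic2 (0.93 to 0.95). For the 4 B cell markers they were B3gntl1, Id1, Ky, Zbtb42 and Rps6kl1 (0.81 to 0.85). Without Tnfrsf13b they were Pcyox1l, Cyp4v3, Tmem204, Sae1 and Sln (0.89 to 0.93).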

How the data were processed

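RNA of rat multifidus was sequenced in 15 libraries, grouped by their labels. Per the labels and the study's methods, the files were made by trimming (Trimmomatic 0.38), alignment to rn6 (HISAT2 2.1.0), sorting (SAMtools 1.9) and assembly on RefSeq annotation (StringTie 2.1.3b). The deposited table holds whole-number read counts per gene, FPKM and TPM. The TPM values were used as deposited by the authors, and the FPKM values deposited by the authors were used in no test. The treatment of strand, of reads matching several genes and the step from StringTie to counts are not given in the sources used here. In RefSeq, Lck and Ms4a1 overlap long noncoding RNAs, so reads of these may be included.

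Counts were fitted with edgeR 4.0.16 in R 4.3.3 (filterByExpr, TMM, robust glmQLFit, 1 mean per group, all 15 libraries), and a gene was called at an adjusted p under 0.05 (glmQLFTest, Benjamini-Hochberg over 17201 genes). The study used exactTest of edgeR 3.40.2, which was an alternative here, with DESeq2 1.42.0, limma 3.58.1 (voom with sample weights), other scalings and filters, only the 2 groups compared, a replicate block, a length correction, and each library left out. Standard errors are the log2 fold change over the square root of F. The scripts were tested on simulated data. Totals of 52342134 to 73557878 counts set the precision, and intervals for counting error do not cover differences between rats. All 9 members were named in each comparison, with at most the 3 most abundant genes of each other list, the 2 largest called in each direction, genes near 0 that define a cell type, and the 5 genes most alike by Pearson's r (log2 CPM, prior count 2, mean of at least 0). Ptprc, Coro1a and Itgb2 were named to spell out a list. The members, lists and motifs were chosen with earlier results of these data known. The result for 1 listed gene is not reported here.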

Additional observations from a re-analysis of the deposited data

Results flagged for a closer look

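The Cd3d level of pMT replicate 3 was 0.0689 CPM (5 counts), while the other 3 pMT libraries were at 0, so that its gap to the nearest library made up the whole range of the group. Among the 24 sets of 4 libraries checked, 1 stood out in this way, where about 1.2 would be expected by chance for continuous values. With the other 3 libraries at 0, any count above 0 stands out, so that figure does not apply to this set.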

How the results depend on the processing

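Of 339 counts of called markers recomputed under other settings, 280 stayed within 1.5 times the reported count and 59 did not. Of 2742 fold changes of single markers, 2603 kept their side of the threshold, 50 lost a call, 87 gained one and 2 reversed. Most were not called in the reported fit and so could not lose a call. Among the 2603, 108 changed sign with no call in either fit. Of the reported calls, Tnfrsf13b held in 8 of 26 alternatives in VitD against control. In pMT/VitD against VitD, Lck held in 24 of 26 and Tnfrsf13b in 22 of 26. For pMT given, Lck held in 24 of 24, Cd3d in 11 of 23 and Tnfrsf13b in 10 of 24. Both reversals came from limma voom, which put Cd3e at 3.48 in pMT/VitD against pMT and at 1.60 for VitD given, against -0.09 and -0.19 as reported. In surgery against control, 4 markers were called with only the 2 groups, with exactTest and by a fold change rule (exactTest, at least 2-fold with p under 0.05 before adjustment), and 3 with voom. In pMT against surgery, exactTest called 1, the fold change rule 2 and voom 4. In pMT/VitD against surgery, library size alone, only the 2 groups and voom called 1 each, and exactTest and the fold change rule 2 each. In VitD against control, 0 were called without the filter, with the replicate block and with only the 2 groups, 2 with at least 10 counts in every library, with the length trend removed, without both libraries numbered 4 of the pMT groups and by DESeq2, 3 by exactTest, and 5 by the fold change rule and by voom. The fold change rule called 1 in pMT/VitD against control, and voom 3 in pMT/VitD against pMT and 3 for the interaction. In pMT/VitD against VitD, only the 2 groups gave 1 and the fold change rule 4. For pMT given, no filter gave 1, the length trend 5 and voom 7. For VitD given, voom gave 2. Over the 5 groups at once, the replicate block gave 0, DESeq2 2 and voom 6. The causes were not tested.

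Leaving out 1 library gave 0 to 1 called markers over the 5 groups at once, in VitD against surgery and in pMT/VitD against surgery, 0 to 2 in VitD against control, 0 to 3 in pMT/VitD against VitD and 1 to 4 for pMT given, and 0 to 0 in the other comparisons. In fits that leave 1 library in a group, it is assumed to vary like the others. Libraries with the same replicate number did not pair, since only 5 of 24 such pairs correlated above 0.1 (median 0.0226, over 11399 genes). The replicate block took the calls over all genes from 266 to 106 in surgery against control, from 334 to 78 in pMT against surgery and from 1279 to 350 in pMT/VitD against surgery. Over all settings, the calls ran from 8 to 5923 for surgery against control (266 reported), 27 to 6457 for pMT against surgery (334), 122 to 6777 for pMT/VitD against surgery (1279), 13 to 6434 for VitD against control (1492), 1122 to 8382 for pMT/VitD against VitD (3766), 2007 to 8806 for pMT given (4004), 1080 to 11458 over the 5 groups (2035), and up to 6595 for pMT/VitD against pMT, 5399 for the interaction, 4229 for VitD given, 1822 for pMT/VitD against control, 419 for VitD against surgery and 227 for pMT against control, each with 0 reported. With medians of 5 to 35 counts for 8 of the 9 markers and 2 control libraries, depth limits every fold change of Cd3d, Cd3e and Ms4a1.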

Other observations

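Foxp3, the factor that defines regulatory T cells, was on the list of other T cell genes and not among the 5 T cell markers. Its lowest level lay in a VitD library. It held 2.55 to 2.82 CPM in the control, 1.51 to 1.74 in the surgery, 1.52 to 3.85 in the pMT, 2.08 to 3.10 in the pMT/VitD and 0.351 to 2.26 in the VitD libraries. It was called in none of the pairs of groups by the quasi-likelihood test. In the same control libraries Cd3d and Cd3e were each at 0 and 0.150 CPM, so Foxp3 reads stood there beside few or no CD3 reads. Which cells the Foxp3 reads came from was not tested.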
